A study of Mus musculus with 12 samples.

Results

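The C/EBP transcription factor genes Cebpa, Cebpb, Cebpd and Cebpg and the Tribbles pseudokinase genes Trib1, Trib2 and Trib3 were followed across 12 mouse liver arrays. The 7 genes were chosen by symbol, because Tribbles proteins control the stability of C/EBP proteins. Each was measured by 1 of the 16475 probe sets that are not array controls. Livers came from 4 groups of 3 mice: c-MetloxP/loxP controls and knockouts lacking c-Met in hepatocytes (c-MetDhepa), each labelled as unstimulated or as stimulated for 2 h with 2 µg recombinant mouse HGF by intraperitoneal injection. HGF (hepatocyte growth factor) is the ligand of the receptor tyrosine kinase c-Met. The loxP-flanked alleles were shared by both genotypes. Cre was driven by the albumin and alpha-fetoprotein control regions (Alfp-Cre, active before birth) or by the albumin promoter (Alb-Cre, active after birth), and the labels do not assign either to an array. Whether unstimulated mice received sodium chloride is not settled by the labels, and neither strain, sex nor age is given. The p-values measure the spread between these 12 samples.

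C/EBP proteins are basic leucine zipper factors that bind DNA as pairs and share a recognition sequence. In the liver, C/EBP alpha is a factor of the resting, metabolically active hepatocyte, whereas C/EBP beta and C/EBP delta are known as factors induced in the acute phase response by interleukin-6, interleukin-1 and glucocorticoids. C/EBP gamma lacks a strong activation domain and acts mainly as a partner of other zipper proteins. Tribbles proteins resemble kinases but have little or no catalytic activity. TRIB1 and TRIB2 bring C/EBP alpha to the ubiquitin ligase COP1 for degradation, and TRIB3, a target of the stress factors ATF4 and CHOP, is known for binding the kinase AKT.

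Promoter sequences are shown for 4 of the members, whose levels did not all run in the same direction between arrays. Cebpb was high on arrays where Cebpa was low and, among knockout arrays, where Trib3 was lowest. In untreated controls both Cebpb and Trib3 were low. Cebpg lies close to Cebpa on chromosome 7. RefSeq promoter entries (GRCm38.p6) matched 5 of the 7 genes. Each line gives the 250 bases before the annotated start, 5′ to 3′ on the gene's strand, with capitals for matches to a TATA box (TATAAA), a cAMP response element half-site (TGACG), an NF-kappaB-type site (GGGANNNNCC) or the box named after its letters CCAAT, on both strands.
Cebpb, chr2:167688665-167688914, plus strand: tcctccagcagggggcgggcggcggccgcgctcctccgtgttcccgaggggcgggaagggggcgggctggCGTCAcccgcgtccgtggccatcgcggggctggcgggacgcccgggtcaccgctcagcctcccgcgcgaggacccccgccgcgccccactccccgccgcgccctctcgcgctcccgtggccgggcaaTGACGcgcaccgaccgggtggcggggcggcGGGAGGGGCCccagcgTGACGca
Cebpa, chr7:35119043-35119292, plus strand: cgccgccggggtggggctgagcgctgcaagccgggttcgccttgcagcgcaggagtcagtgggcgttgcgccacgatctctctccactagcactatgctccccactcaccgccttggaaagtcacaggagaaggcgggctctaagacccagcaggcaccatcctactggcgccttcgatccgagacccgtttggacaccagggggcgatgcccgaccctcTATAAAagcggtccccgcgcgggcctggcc
Cebpg, chr7:35056567-35056816, minus strand: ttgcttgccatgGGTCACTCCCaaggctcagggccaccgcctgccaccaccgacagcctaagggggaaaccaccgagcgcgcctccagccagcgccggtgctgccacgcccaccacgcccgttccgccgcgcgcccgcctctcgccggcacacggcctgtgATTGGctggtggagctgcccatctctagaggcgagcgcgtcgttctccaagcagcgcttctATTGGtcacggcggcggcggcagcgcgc
Trib3, chr2:152344061-152344310, minus strand: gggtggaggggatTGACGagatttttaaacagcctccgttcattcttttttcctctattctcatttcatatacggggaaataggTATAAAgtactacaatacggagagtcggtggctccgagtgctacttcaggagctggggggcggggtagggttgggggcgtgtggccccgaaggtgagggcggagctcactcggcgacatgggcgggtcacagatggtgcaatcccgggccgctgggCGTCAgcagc
The Cebpb stretch held 3 half-sites TGACG, whose first bases lay 180, 53 and 7 bases before the start, and the Trib3 stretch held 2, at 237 and 10 bases. At least 1 such half-site occurred in 17.8% of all 32851 promoter entries of that length. Cebpa had a TATA box 30 bases before its start and Trib3 had TATAAA at 166 bases, against 12.4% of entries with a match. The NF-kappaB-type pattern matched Cebpb (at 23 bases) and Cebpg (at 238 bases), as it did 17.6% of entries, and Cebpg had 2 CCAAT boxes, a motif found in 33.8%. No capitalised matches overlapped each other. The GC box GGGCGG, left in lower case, occurred 5 times in Cebpb and 3 times in Trib3, and in 32.7% of entries. Base composition differed as well, with 81.6% G and C in the Cebpb stretch, 70.8% in Cebpg, 66.4% in Cebpa and 57.2% in Trib3. The C/EBP core TTNNGNAA, the C/EBP-ATF element TGATGNAA, the STAT site TTCNNNGAA, the D-box TTANGTAA and the E-box CACGTG had no match in these 4 windows; 36.8%, 3.45%, 7.02%, 2.06% and 6.02% of entries held them.

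All levels below are log2(intensity + 1) of the deposited probe set values, and differences between groups are on the same scale, which understates changes of dim probe sets. Knockout arrays did not sort by their HGF label. On an index where control arrays average 0 without HGF and 1 with HGF over all 6683 tested probe sets, knockout replicate 2 without HGF lay at 0.98 and knockout replicate 3 with HGF at 0.94. The knockout replicate 2 arrays, at 0.98 labelled without HGF and 0.02 labelled with it, thus ran opposite to their labels. The labels were kept as given, and whether they are right was not tested, which bears on every HGF difference in knockouts, genotype difference and interaction below. Knockout replicate 1 with HGF lay at 0.32, and the other 3 knockout arrays lay between 0.02 and 0.12. The Met probe set did not separate the genotypes (6.59 to 7.02 on control and 6.29 to 7.40 on knockout arrays); its position in the transcript is unknown, so it checks nothing about the deletion. Hepatocyte markers were at a summed level of 16.06 to 16.13 in untreated controls and 15.97 to 16.05 on all other arrays, a small difference without overlap. The markers did not move together. Between the control groups Apoa1, Ttr and Serpina1a overlapped. Hnf4a went the other way, at 9.25 to 9.44 in untreated and 9.46 to 10.06 in treated controls. Array numbers run from 1 to 6 in controls and from 7 to 12 in knockouts, so genotype and array order cannot be told apart. Comparisons that involve knockouts are therefore given with all arrays and also without both knockout replicate 2 arrays, a choice made with earlier results of these data known.

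Among the members, Cebpa and Cebpb had the highest mean levels within the array, each brighter than 88.9% and 85.9% of tested probe sets, followed by Cebpd (53.3%) and Cebpg (17.8%). These are ranks of probe set brightness, not of transcript number. Trib3 exceeded 9.73% and Trib1 0.539% of tested probe sets, and Trib2 stayed below the filter, a log2 value of 4 on at least 3 arrays, so 6 of the 7 members were tested. Trib1 reached 4 on only 3 arrays, all of them controls with HGF, and would not have been tested without them. Trib3 reached 4 on 5 arrays, 4 of them knockouts, and would not have been tested without those either.

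**Figure D1:**
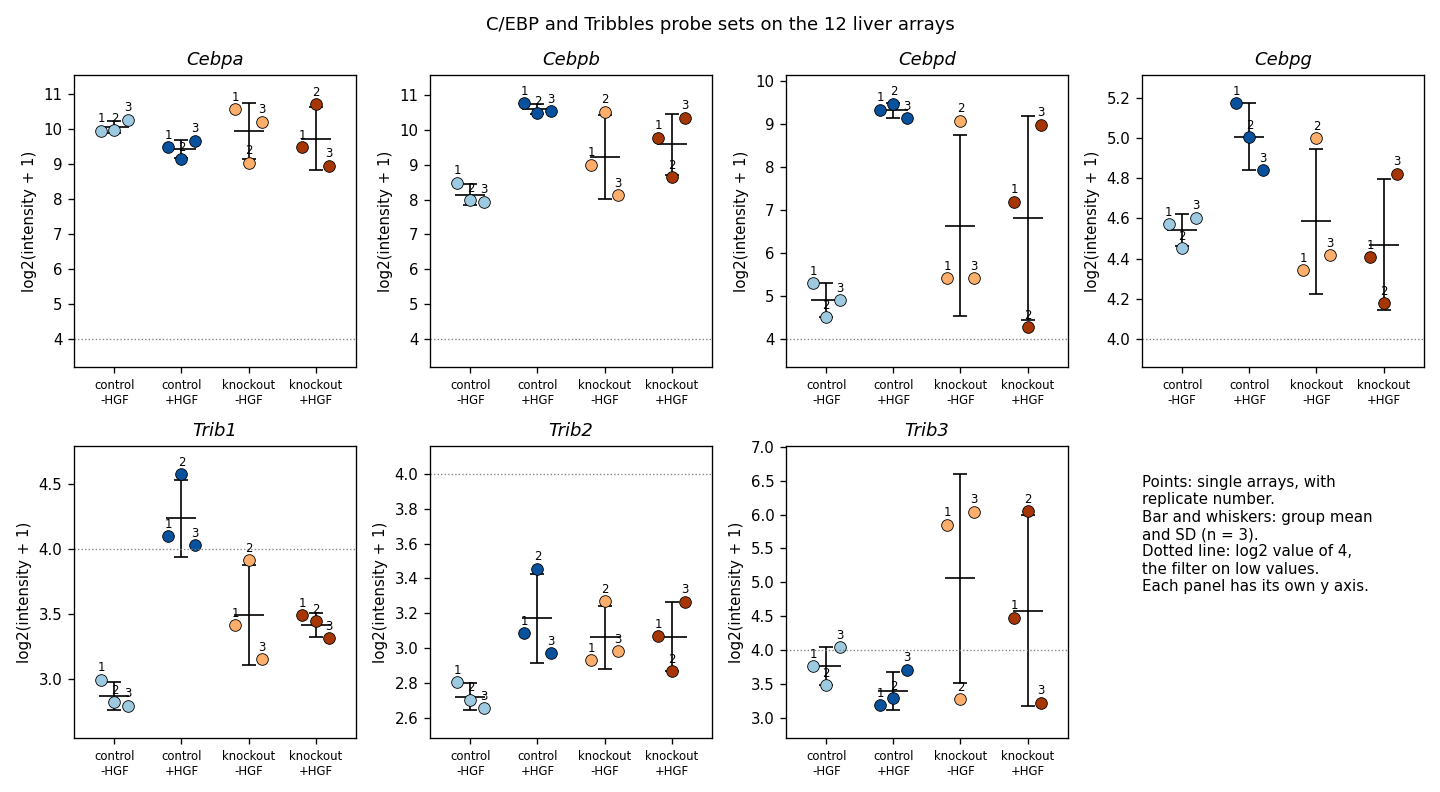
Levels of the 7 probe sets (y axis, log2(intensity + 1), separate for each panel) by group (x axis), with numbered points for single arrays and mean and SD for n = 3. Cebpb and Cebpd lie high on all 3 control arrays with HGF, while knockout arrays of either label lie both high and low; Trib3 reaches 5.85 or more only on 3 knockout arrays.

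In control livers, all 3 arrays with HGF lay above all 3 without it for Cebpb, Cebpd, Cebpg, Trib1 and Trib2 and below them for Cebpa; the Trib3 groups overlapped. Groups separated in this way for 37.7% of tested probe sets, 14.1% higher and 23.7% lower. Limma, fitted over all 4 groups, called 1 of the 6 tested members at a Benjamini-Hochberg adjusted p under 0.05, Trib1, against 0.404% of all tested probe sets, and 4 members had an unadjusted p under 0.05, against 19.6%. Fitted to the control groups alone, it called 4 members, Cebpb, Cebpd, Cebpg and Trib1, against 12% of probe sets. Without both knockout replicate 2 arrays it called 3 (Cebpb, Cebpd and Trib1), against 8.16%. The spread of the knockout arrays enters the first fit and not the second.

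Cebpd, the acute phase factor C/EBP delta, had the largest difference of the 7. Untreated control replicates 1 to 3 had levels of 5.30, 4.50 and 4.91, and treated ones 9.33, 9.47 and 9.13. The difference of 4.41 (SE 1.16, 21.2-fold) had a limma adjusted p = 0.102 over all groups and adjusted p = 9.88e-05 with the control groups alone. Leaving out any single array kept it at 4.21 or above. Untreated knockouts had Cebpd levels of 5.42, 9.08 and 5.42, and treated knockouts 7.19, 4.27 and 8.98. Replicate 2 without HGF and replicate 3 with HGF thus approached the treated controls, replicate 1 with HGF lay between the control groups, and replicate 2 with HGF lay below every other array. The HGF difference in knockouts was 0.18 (95% interval -2.40 to 2.75, limma adjusted p = 1), and it was -0.91 without replicate 3 with HGF and 2.67 (SE 0.49, limma adjusted p = 0.0243) without both replicate 2 arrays. Because both arrays removed there ran opposite to their HGF label, the choice itself enlarges the difference.

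Cebpb, which encodes C/EBP beta, followed the same arrays. Control levels were 8.48, 7.98 and 7.94 before and 10.76, 10.48 and 10.54 after treatment. This was a difference of 2.46 (SE 0.56, 5.51-fold; limma adjusted p = 0.0801 over all groups and adjusted p = 0.000439 with the control groups alone), which stayed between 2.37 and 2.64 when any single array was left out. Untreated knockouts had levels of 9.0, 10.52 and 8.13, and treated knockouts 9.77, 8.64 and 10.35. Every knockout array with HGF lay below the lowest treated control, and replicate 2 without HGF lay within the treated control range. The HGF difference in knockouts was 0.37 (95% interval -0.86 to 1.61, limma adjusted p = 1) with all arrays, -0.17 when untreated replicate 3 was left out, and 1.5 (SE 0.31, limma adjusted p = 0.0381) without both replicate 2 arrays.

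Cebpa, the factor of the resting hepatocyte, ran the other way with a smaller range. Levels were 9.96, 9.97 and 10.28 in controls without HGF and 9.48, 9.15 and 9.67 with HGF, a difference of -0.63 (SE 0.46) that did not pass (limma adjusted p = 0.466 over all groups and adjusted p = 0.0550 with the control groups alone). In knockouts the values were 10.58, 9.05 and 10.22 without HGF and 9.49, 10.72 and 8.96 with HGF. The 2 lowest of the 12 values belonged to knockout replicate 3 with HGF and knockout replicate 2 without HGF, the knockout arrays where Cebpb and Cebpd were highest. The highest value was on knockout replicate 2 with HGF, where Cebpd was lowest. The HGF difference in knockouts was -0.22 (95% interval -1.24 to 0.79, limma adjusted p = 1), 0.16 without replicate 3 with HGF, and -1.17 (SE 0.24, limma adjusted p = 0.0360) without both replicate 2 arrays.

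The within-array difference of Cebpb minus Cebpa, which shows unequal change and not a ratio of transcript numbers, gathers both movements. Relative to its mean in controls without HGF, it lay between -0.40 and 0.46 on those 3 arrays and between 2.80 and 3.26 on the treated controls. On knockout arrays without HGF it was 0.35, 3.41 and -0.15 for replicates 1 to 3, and on those with HGF 2.21, -0.15 and 3.32. Replicates 1 and 3 without HGF and replicate 2 with HGF thus lay near the untreated controls, and replicate 1 with HGF lay between both control groups.

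**Figure D2:**
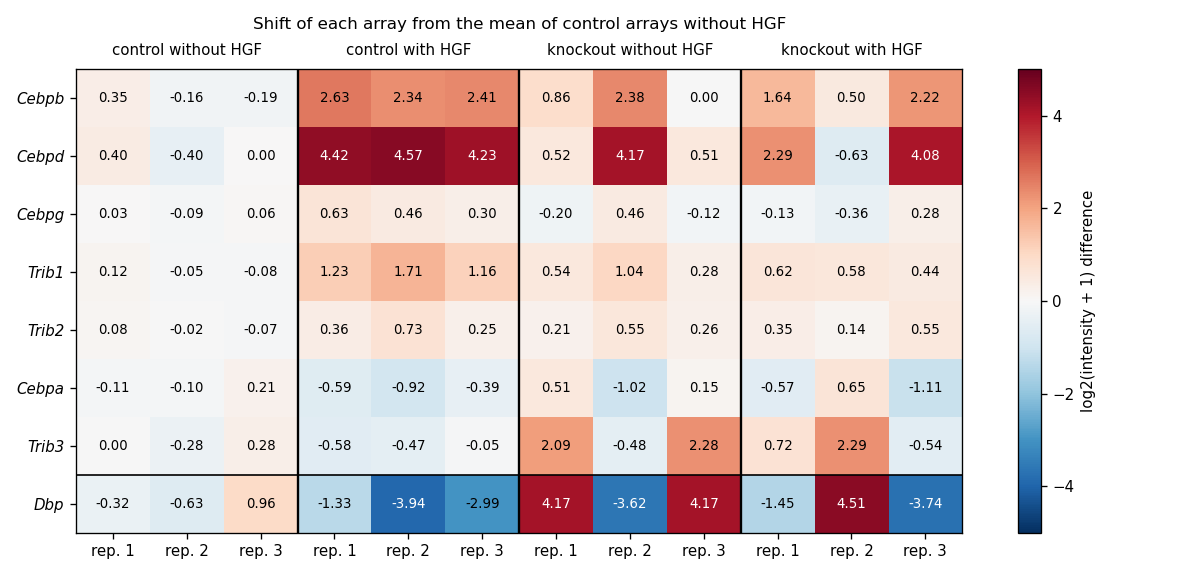
Shift of every array from the average untreated control (colour and printed value, log2(intensity + 1) difference) for the 7 members and the clock output gene Dbp (rows), with arrays in columns by group and replicate. Cebpd shifts by 4.17 on knockout replicate 2 without HGF and 4.08 on knockout replicate 3 with HGF, where Cebpa and Trib3 shift down and Dbp shifts by -3.62 and -3.74.

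Cebpg, the gene of the partner factor C/EBP gamma, stayed close to the filter throughout, between 4.18 and 5.17. Untreated controls had levels of 4.57, 4.45 and 4.6, and treated controls 5.17, 5.01 and 4.84. This difference of 0.46 (SE 0.20) had a limma adjusted p = 0.239 over all groups and adjusted p = 0.0491 with the control groups alone. Untreated knockouts had levels of 4.34, 5.0 and 4.42 and treated knockouts 4.41, 4.18 and 4.82, so all 3 of the latter lay below all 3 treated controls and the array with the highest value was again replicate 2 without HGF. The HGF difference in knockouts was -0.12 (95% interval -0.56 to 0.33, limma adjusted p = 1), and 0.24 without both replicate 2 arrays (adjusted p = 0.431).

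Trib1, whose product recruits COP1 to C/EBP alpha, was the member that limma called. Its levels in controls were 2.99, 2.82 and 2.79 without HGF and 4.10, 4.58 and 4.03 with HGF, a rise of 1.36 (SE 0.20, 95% interval 0.92 to 1.80, limma adjusted p = 0.0338). With no filter the limma adjusted p was 0.0483 (0.0789% of probe sets called), and with the control groups alone it was 0.00363. The call rests on every control array. Without control replicate 1, 2 or 3 without HGF the adjusted p was 0.153, 0.134 and 0.154, and without control replicate 1, 2 or 3 with HGF it was 0.0674, 0.128 and 0.0830, with differences of 1.19 to 1.47. Values under 4 are close to background, so no fold is given, and the size depends on the pseudocount: with 16 in place of 1 the difference was 0.60 (limma adjusted p = 0.0449). Trib1 entered the test only through the arrays where it was high.

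Trib1 levels were 3.41, 3.91 and 3.15 in untreated knockouts and 3.49, 3.45 and 3.31 in treated ones. All 6 values lay above every untreated control and below every treated control. Knockout replicate 3 with HGF, whose Cebpd level (8.98) came close to the treated controls, had a Trib1 level of 3.31, the lowest of its group. The HGF difference in knockouts was -0.08 (95% interval -0.52 to 0.36, limma adjusted p = 1) and 0.12 (adjusted p = 0.764) without both replicate 2 arrays. The interaction, the HGF difference in knockouts minus that in controls, was -1.44 (SE 0.28, unadjusted p = 0.000408, limma adjusted p = 0.211). Because Trib1 passed the filter only through the treated controls, a negative interaction was favoured in advance.

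Trib2, a relative of Trib1 that also acts on C/EBP alpha, stayed under 4 on every array, between 2.66 and 3.46, so its values are near background and were not tested. They were 2.80, 2.71 and 2.66 in controls without HGF and 3.08, 3.46 and 2.97 with HGF, and 2.93, 3.27 and 2.98 in knockouts without HGF and 3.07, 2.87 and 3.27 with HGF. The control difference was 0.45 (SE 0.15, limma adjusted p = 0.207 in a fit with no filter).

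Trib3, the stress-induced member that binds AKT, had its highest values in knockouts. Untreated controls had levels of 3.76, 3.48 and 4.04, and treated controls 3.18, 3.29 and 3.71. The difference of -0.37 (SE 0.77, limma adjusted p = 0.820; adjusted p = 0.266 with the control groups alone) did not pass. Untreated knockouts had Trib3 levels of 5.85, 3.28 and 6.04, and treated knockouts 4.48, 6.05 and 3.22. Of the knockout arrays, 4 exceeded every control, while replicate 2 without HGF and replicate 3 with HGF lay within the range of treated controls. The HGF difference in knockouts was -0.47 (95% interval -2.19 to 1.24, limma adjusted p = 1) with all arrays, 0.20 without replicate 3 with HGF, and -2.10 (SE 0.37, limma adjusted p = 0.0220) without both replicate 2 arrays.

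**Figure D3:**
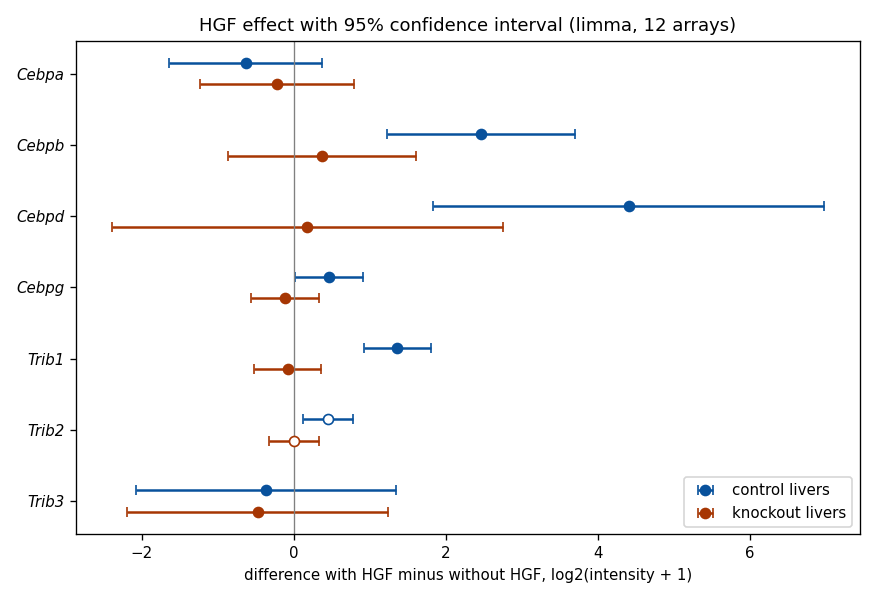
Difference with HGF minus without HGF (x axis, log2(intensity + 1)) for each member (y axis) in control and knockout livers, with 95% intervals from the limma fit over 12 arrays; open symbols mark Trib2, from a fit with no filter. The control interval of Trib1 runs from 0.92 to 1.80, and the knockout interval of every member includes 0.

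For HGF in knockout livers, limma called 0 of the 6 tested members and 0% of all tested probe sets, with 127 of 6683 (1.9%) at an unadjusted p under 0.05, none of them members, and no member had groups that did not overlap, against 3.8% of probe sets. Without both replicate 2 arrays it called 4 members, Cebpa, Cebpb, Cebpd and Trib3, against 4.16% of probe sets. In that fit, which compares 2 knockout arrays with 2, Cebpb and Cebpd rose and Cebpa and Trib3 fell. Both arrays removed ran opposite to their HGF label, so the choice itself enlarges these 4 differences, as stated for Cebpd. For the interaction, limma called 0 members and 0% of probe sets, while 10.8% of probe sets and 3 members had an unadjusted p under 0.05. The members were Cebpb (-2.09, SE 0.79, limma adjusted p = 0.407), Cebpd (-4.23, SE 1.64, adjusted p = 0.415) and Trib1. Without both replicate 2 arrays the interaction of Trib1 was -1.25 (SE 0.25, limma adjusted p = 0.0829, against 0.359% of probe sets called). Trib1 was tested only through the treated controls, so its interaction carries the limit given above.

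Between genotypes without HGF, limma called 0 of the 6 tested members against 0.0599% of probe sets, and 1 member (Trib1) had an unadjusted p under 0.05, against 10.8%. All 3 knockouts lay above all 3 controls for Cebpd, Trib1 and the untested Trib2, a separation in that direction that 6.61% of tested probe sets showed. Trib1 and Trib2 were under 4 on all of these arrays, so their separations lie among values near background. The differences were 1.73 for Cebpd (SE 1.16, limma adjusted p = 0.658), of which 0.51 was left without both replicate 2 arrays, and 0.62 for Trib1 (SE 0.20, adjusted p = 0.286), of which 0.41 was left. That of Cebpb was 1.08 (SE 0.56, adjusted p = 0.534) with all arrays and 0.43 without those arrays. Trib3 was higher by 1.30 (SE 0.77, adjusted p = 0.608) with all arrays. Without both replicate 2 arrays the difference was 2.19 (SE 0.34, limma adjusted p = 0.0171, against 2.69% of probe sets called). That fit leaves out the 1 untreated knockout at control level (3.28), a choice made with its value known, and the controls are near background, so no fold is given. Trib3 also passed the filter only with the help of knockout arrays where it was high, which favours a knockout excess. Cebpa (-0.12, SE 0.46) and Cebpg (0.05, SE 0.20) differed by less than their standard errors and changed sign without those arrays (0.33 and -0.16).

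After HGF, limma again called 0 of the 6 tested members, against 0.015% of probe sets, and 2 members (Cebpg and Trib1) had an unadjusted p under 0.05, against 9.58%. Trib1 passed the filter only through the treated controls, which favours a lower value in knockouts here. All 3 knockouts lay below all 3 controls for Cebpb, Cebpd, Cebpg and Trib1, as in 6.08% of tested probe sets. The differences were -1.01 for Cebpb (SE 0.56, limma adjusted p = 0.569), -2.49 for Cebpd (SE 1.16, adjusted p = 0.533), -0.54 for Cebpg (SE 0.20, adjusted p = 0.496) and -0.82 for Trib1 (SE 0.20, adjusted p = 0.381). Without both replicate 2 arrays they were -0.53, -1.22, -0.39 and -0.83, so that of Trib1 was as large, and 0 members and 0.0299% of probe sets were called. Trib3, which passed the filter with the help of knockout arrays, was at 1.19 (SE 0.77, adjusted p = 0.624) and at 0.46 without both replicate 2 arrays. Both genotype comparisons share their arrays with the HGF comparisons above.

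**Figure D4:**
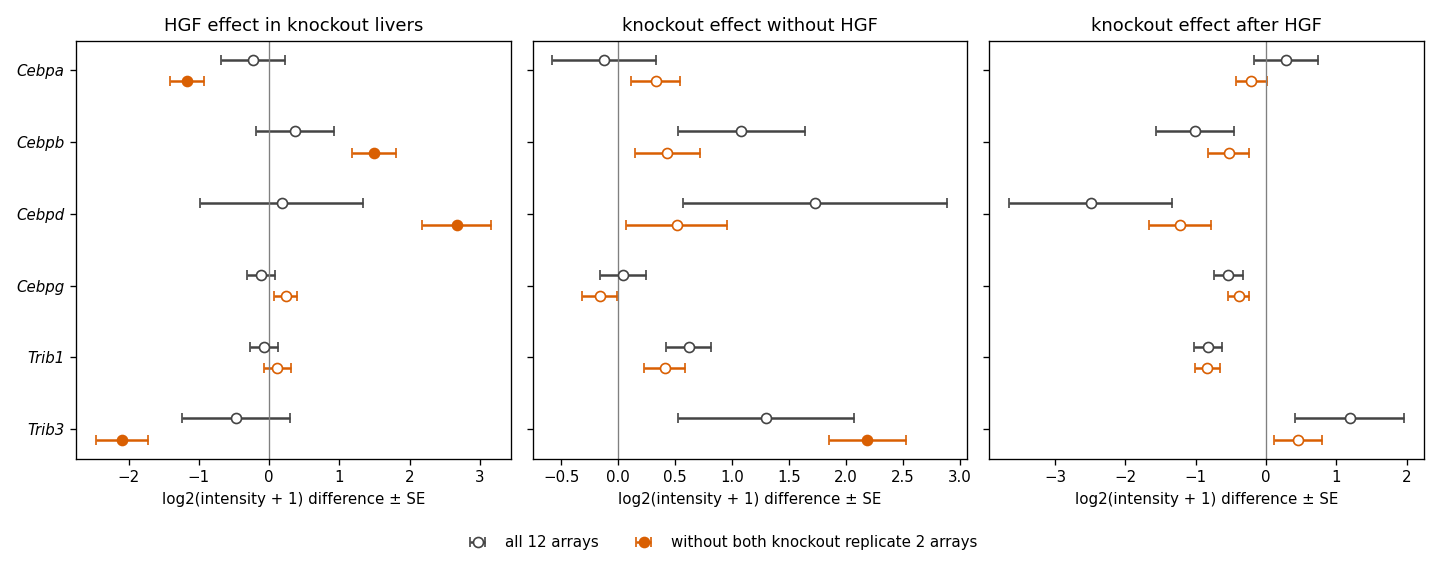
Differences of the 6 tested members (x axis, log2(intensity + 1), mean ± SE from limma; y axis, gene) for the HGF effect in knockouts and both knockout effects, with all 12 arrays and without both knockout replicate 2 arrays; filled symbols have an adjusted p under 0.05. Filled symbols appear for 4 genes in the first panel and for Trib3 in the second, each in the fit without those arrays.

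Measures of array state moved with these values. Dbp, a zipper factor gene under circadian control, had levels of 10.72, 2.92 and 10.72 in untreated knockouts and 5.09, 11.05 and 2.81 in treated knockouts, and did not exceed 7.5 in controls. The 3 knockout arrays with Dbp above 10 were those with the 3 highest Trib3 levels, and the knockout arrays with Dbp under 3 were those with Cebpd near 9. Among markers of other cell types, the summed level of 7 measured neutrophil genes ranged from 5.56 to 6.69 in controls without HGF and from 9.61 to 11.47 in controls with HGF. It ranged from 5.74 to 10.31 in knockouts without HGF and from 5.23 to 10.29 in knockouts with HGF. Only S100a8 and S100a9 of these 7 passed the filter, and Mpo, Elane and Ngp stayed under 4 on every array. Knockout S100a9 levels were 4.29, 9.51 and 3.74 before and 7.27, 3.06 and 9.49 after treatment, so the same arrays were highest as for Cebpd. Sinusoidal endothelial genes (7 measured) summed to 10.41 to 10.45 in untreated and 10.04 to 10.14 in treated controls, without overlap, and to 10.21 to 10.60 in untreated and 10.26 to 10.60 in treated knockouts. The sums add linear intensities, so the brightest genes weigh most. Lyve1 went the other way, at 3.38 to 3.94 in untreated and 5.71 to 7.17 in treated controls, and Stab1 and Pecam1 overlapped between these groups. Stellate cell genes (5 measured, Des and Col1a1 under 4 on every array) summed to 9.26 to 9.55 in untreated controls and 9.67 to 10.21 in untreated knockouts, without overlap, and to 9.5 to 9.70 and 9.47 to 9.76 in treated controls and knockouts. Of the others, Col3a1 separated the untreated genotypes (7.80 to 8.36 in controls, 8.51 to 9.11 in knockouts), while Lrat and Reln overlapped. Kupffer cell and macrophage genes (8 measured) summed to 11.42 to 12 and 11.02 to 11.51 in untreated and treated controls and to 10.94 to 11.64 and 11.07 to 11.69 in untreated and treated knockouts. Marco, 1 of these genes, was higher in treated controls (6.07 to 6.62) than in untreated ones (3.01 to 4.74). Lymphocyte genes (4 measured) summed to 4.12 at most, with all 4 under 4 on every array. Of 4 measured cholangiocyte genes, Krt19, Krt7 and Epcam stayed under 4 on every array, and the sum lay between 4.38 and 5.68. In whole liver, more cells of a type and more RNA per cell cannot be told apart, and the part of circadian time or of any of these cell types in the values of the members was not tested.

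The genes whose pattern was most like each tested member across the 12 arrays were ranked by Pearson's r, as a description of arrays that share a platform and fall into high and low sets. Cebpb lay closest to the neutrophil chemokine gene Cxcl1 (0.984), the metallothionein gene Mt2 (0.975) and Tacc2 (0.972), and Cebpd to Steap4 (0.987), the NF-kappaB regulator gene Nfkbiz (0.984) and S100a9 (0.983). Cebpa lay closest to C920006O11Rik (0.967), Galm (0.965), an enzyme of galactose metabolism, and Slc10a1 (0.958), the bile acid uptake transporter of hepatocytes. Nearest to Trib3 were Ngef (0.979), Acy1 (0.965) and the clock-controlled zipper factor gene Tef (0.965). For Trib1 these were the protease gene Adamts1 (0.934), Phlda1 (0.929) and Tbc1d2b (0.924), and for Cebpg Pla2g12b (0.957), Pgm2 (0.953) and Pkdcc (0.952).

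Most tested genes of pathways linked to C/EBP induction, feedback inhibitors among them, had positive HGF differences in controls. Their part in the C/EBP levels was not tested. Of 20 listed genes of cytokine, glucocorticoid and cAMP signalling, 13 were tested and 12 had positive differences, with a median of 1.10 against -0.09 over all tested probe sets. Limma over all groups called 0 of them, 10 had an unadjusted p under 0.05 in the positive direction (8.95% of probe sets did), and with the control groups alone 11 rose (12% of probe sets were called in that fit). Largest were Socs3 (4.04, SE 0.91), a feedback inhibitor of interleukin-6 signalling, the cytokine gene Il1b (3.65), the interleukin-1 receptor gene Il1r1 (2.95) and Nfkbia (2.51), an inhibitor of NF-kappaB. Stat3, the factor that carries the interleukin-6 signal and the brightest of the list after Nfkbia, was at 1.14. The glucocorticoid receptor gene Nr3c1 was at -0.15, the 1 negative value. Creb1 (0.26), among the positive ones, would not have been tested without the treated controls. The cytokine genes Il6 and Tnf were measured but did not pass the filter. In knockouts the median was 0.15 and limma called 0, while without both replicate 2 arrays 5 rose and 1 fell (4.16% of probe sets were called).

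Acute phase genes that C/EBP factors are known to drive were all on the positive side in controls. All 13 tested of 14 listed had positive differences (median 1.10), led by Lcn2 (5.46), Saa3 (4.66), Il1rn (4.27) and Orm2 (3.78), yet limma over all groups called 0 and 4 had an unadjusted p under 0.05, against 8.95% of probe sets in that direction. With the control groups alone 5 rose, against 12% of probe sets called. Il1rn, at 2.79 to 2.94 in untreated and 5.99 to 8.05 in treated controls, would not have been tested without the treated controls. This favours a positive difference for that gene. Fgb (0.21), a fibrinogen chain, and Hamp (0.17), which encodes hepcidin, were the brightest and had small differences. Their knockout median was 0.12, with 0 called, and 2 rose without both replicate 2 arrays, against 4.16% of probe sets called.

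Metabolic genes known as C/EBP targets showed no common direction. In controls 3 of 12 tested were positive and 9 negative, with a median of -0.03, and limma called 0 over all groups. The exception in size was G6pc, glucose-6-phosphatase of gluconeogenesis, at -3.65 (SE 0.72, limma adjusted p = 0.0643), with groups that did not overlap; with the control groups alone 1 of the 12 tested fell, against 12% of probe sets called. Tat (0.65), which degrades tyrosine, Ppara (-0.58), the fat oxidation receptor, and Pck1 (0.56), another gluconeogenic enzyme, came next, and the bright Alb (-0.02) and Ttr (-0.05), which encode plasma proteins, were near 0. G6pc in knockouts was at 0.83 (adjusted p = 1).

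The Tribbles and COP1 list held 20 names, of which 12 were tested and 0 were called in controls. Jun (2.53) and Ets2 (1.97), both transcription factor genes whose proteins are COP1 substrates, had the largest differences, followed by the kinase gene Map2k4 (0.28) and the ligase subunit gene Rbx1 (-0.25). With the control groups alone 2 of the 12 rose, near the 12% of all probe sets called in that fit. The bright members Mlxipl, a regulator of lipogenesis (0.10), and Ddb1, an adaptor of the ligase (0.05), were near 0, as was the median (0.07). The knockout median was 0.10, with 0 called.

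In the ATF4 and CHOP stress list, to which Trib3 is a downstream gene, 9 of 10 tested had positive differences in controls (median 0.27). Limma called 1 over all groups, Atf3, which rose by 2.79 (SE 0.47, adjusted p = 0.0418), against 0.404% of all tested probe sets. Atf3 would not have been tested without the treated controls, where it was high (5.31 to 6.36), which favours a rise. Its untreated controls (2.83 to 3.13) were near background. Ppp1r15a (1.43), Asns (1.28) and Herpud1 (0.28) were next in size and were not called. The bright chaperone gene Hspa5 (-0.16) and Xbp1 (0.25) had small differences. In knockouts the median was 0.05 with 0 called. Among the other zipper factors, 9 tested, limma called 0 in controls; Dbp (-2.75), Nfil3 (0.78), Tef (-0.74) and Hlf (-0.35) had the largest differences, and Atf5 (-0.03) and Atf4 (0.02), the brightest, were near 0. The adipogenesis and lipid list (9 tested) had 0 called and a median of -0.01, with Lpin1 (1.74), Srebf1 (-1.19), Dgat2 (0.37) and Fasn (-0.34) largest, and Scd1 (-0.06) and Plin2 (-0.18) brightest; in knockouts the median was -0.17.

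**Figure D5:**
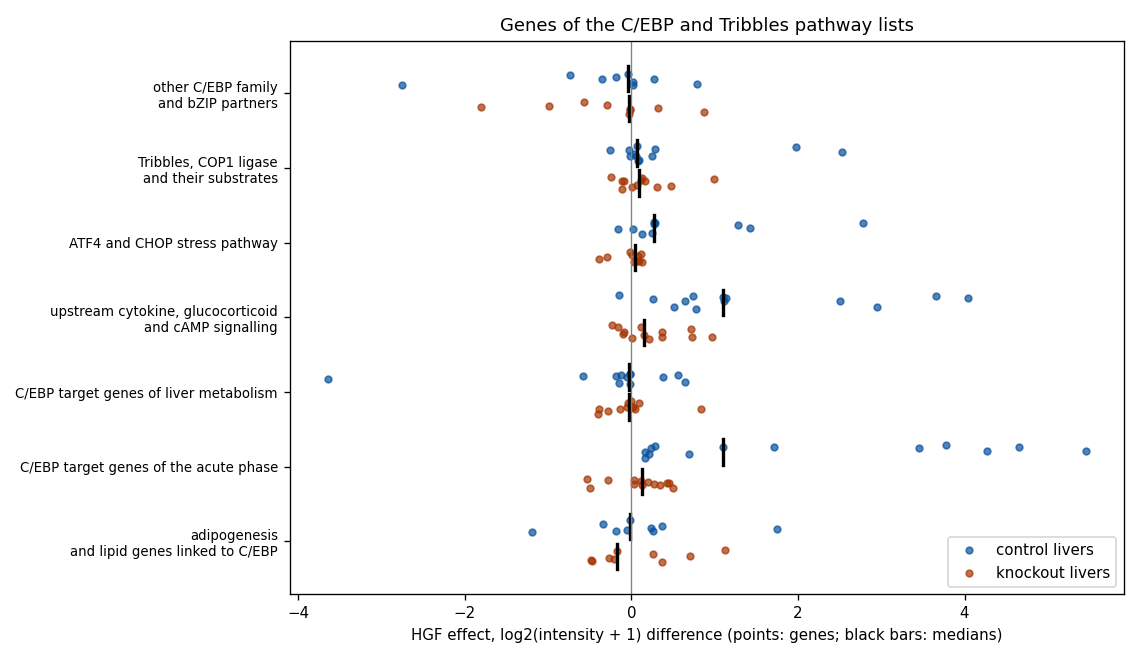
HGF effect (x axis, log2(intensity + 1) difference) of the tested genes in 7 lists around C/EBP and Tribbles factors (y axis) in control and knockout livers; points are genes and black bars medians. Control medians are 1.10 for the cytokine signalling and acute phase lists and lie between -0.03 and 0.27 for the other lists.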

How the data were processed

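The authors deposited 1 table of linear-scale intensity per probe set, made with GCRMA (no version stated) per the submitters' processing notes. That method corrects background by probe base composition and equalises array distributions, so shifts shared by most genes are not visible and dim signals are compressed. Biotin-labelled RNA of cryopreserved liver was hybridised to Affymetrix arrays, per the labels' protocols. Groups came from sample titles. Platform annotation gave 1 symbol to 15780 of 16475 probe sets that are not controls.

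Values were used as log2(intensity + 1). Probe sets with a log2 value of at least 4 on at least 3 arrays (6683) entered limma 3.58.1 (R 4.3.3) with 1 mean per group, 8 residual degrees of freedom, empirical Bayes moderation and two-sided tests, and a call meant an adjusted p under 0.05 (Benjamini-Hochberg). The script was tested on simulated data: in the control HGF comparison, 71% of genes changed by 1 and 89% of those changed by 2 (log2) were recovered among 6683 genes, and 7.51% of calls were false. The simulated noise was independent between genes and arrays, and no array ran opposite to its label. These rates therefore check the script and do not give the power for the members on the real arrays. The number of arrays limits precision. Members and lists were chosen with earlier results of these data known; named genes were all members, the 3 closest in pattern, and per list the 4 largest differences and the 2 brightest genes, with Nr3c1, S100a9 and Dbp added after their values were seen. Alternatives were another pseudocount (16), no filter, added quantile normalization, array weights, a replicate block, a test against 1.2-fold, fits of the 2 groups compared, and arrays left out.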

Additional observations from a re-analysis of the deposited data

How the results depend on the processing

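The differences of Cebpb, Cebpd, Cebpg and Trib1 (positive) and of Cebpa and Trib3 (negative) for HGF in controls kept their direction in all 21 alternatives. Counts of calls depended on how the knockout spread entered. For HGF in controls, 1 member and 27 probe sets were called; array weights gave 4 and 1353, the control groups alone 4 and 801, and leaving out both knockout replicate 2 arrays 3 and 545. Both counts were 0 with the replicate block, with the 1.2-fold test and with 2 arrays omitted whose description has an extra letter (the letter setting). No filter gave 13 probe sets and a pseudocount of 16 gave 41. Single arrays left out gave 0 to 3 members and 0 to 317 probe sets. For HGF in knockouts, 0 were called in every alternative except without both replicate 2 arrays (4 members, 278 probe sets). For the interaction (0 called), array weights gave 1 member (Trib1, -1.30) and 268 probe sets, 24 probe sets were called without both replicate 2 arrays, and 0 to 1 with single arrays left out. For genotype without HGF (0 members, 4 probe sets), array weights gave 2 and 637, no replicate 2 arrays 1 and 180, and the block, the 1.2-fold test and the letter setting 1 probe set; single arrays gave 1 to 9. For genotype after HGF (0 members, 1 probe set), array weights gave 1 and 290, no replicate 2 arrays gave 2 probe sets and single arrays 1 to 3. The array weights stopped before reaching their convergence tolerance. Causes were not tested beyond the arrays each setting removes or down-weights.

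Signs turned in knockout comparisons. For HGF in knockouts, array weights gave 0.023 for Cebpg and 0.050 for Trib1, leaving out both replicate 2 arrays 0.24 and 0.12, and the letter setting -0.17 for Cebpb, -0.43 for Cebpd and 0.017 for Trib3. Single arrays left out gave -0.72 to 0.16 for Cebpa, -0.17 to 1.02 for Cebpb, -0.91 to 1.45 for Cebpd, -0.29 to 0.090 for Cebpg, -0.25 to 0.13 for Trib1 and -1.36 to 0.20 for Trib3. For genotype without HGF, array weights and the loss of both replicate 2 arrays gave 0.34 and 0.33 for Cebpa and -0.14 and -0.16 for Cebpg, and single arrays -0.44 to 0.33 and -0.16 to 0.17. After HGF, Cebpa was at -0.21 without both replicate 2 arrays and at -0.21 to 0.67 with single arrays left out. The interaction of Cebpa was -0.24 with array weights, -0.54 without both replicate 2 arrays and -0.086 to 0.79 with single arrays left out; that of Trib3 was 0.33 in the letter setting and -1.0 to 0.57 with single arrays left out.

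Whether the replicate number pairs the samples is not settled by the labels. Same-numbered arrays of a genotype had neighbouring array numbers. Their deviations from group means correlated at 0.10, 0.18 and 0.05 in controls, against -0.18 to 0.07 for differently numbered arrays. In knockouts these were 0.12, -0.83 and -0.70, against -0.69 to 0.85. With 3 arrays per group, and knockout arrays that ran opposite to their labels, these correlations cannot decide the question. With the replicate block, 0 members were called in any comparison, and Trib1 for HGF in controls had a limma adjusted p = 0.226. Signal near background limits Trib1, Trib2 and Trib3.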

Other observations

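Asns, the asparagine synthetase gene and like Trib3 a target of ATF4, lay above every untreated control on all 6 knockout arrays. Its level was 4.15 to 5.40 in controls without HGF, 4.86 to 6.67 in controls with HGF, 6.29 to 7.49 in knockouts without HGF and 6.30 to 7.33 in knockouts with HGF. The genotype difference without HGF was 2.01 (SE 0.53, unadjusted p = 0.00328, limma adjusted p = 0.192), and the groups did not overlap, but it did not pass. Of the 10 tested genes of the ATF4 and CHOP list, only Asns had an unadjusted limma p under 0.05 in that comparison. Over all tested probe sets the share was 10.8%. The groups of the other tested genes of that list overlapped. Untreated replicate 2 (6.29) and treated replicate 3 (6.30) had the lowest Asns levels of their knockout groups, as they had for Trib3. Atf4 itself lay between 8.24 and 8.73 on all 12 arrays.

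Cd36, a fatty acid uptake gene of the lipid list, was at 7.53 to 7.73 in controls without HGF and 8.19 to 8.73 in knockouts without HGF, a difference of 0.87 (SE 0.26, limma adjusted p = 0.261) that did not pass. Both genes were picked after their values were seen.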
